A study of Danio rerio with 16 samples.

Results

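The genes described here encode the hypoxia-inducible factor (HIF) alpha subunits and the enzymes that control them, read in whole zebrafish larvae after exposure to PCB153, a highly chlorinated polychlorinated biphenyl. The members were 10 symbols named for their role in this pathway, with earlier results of these data known, 5 alpha subunits (hif1aa, hif1ab, hif1al, epas1a and epas1b) and 5 regulators (egln1a, egln2, egln3, vhl and hif1an). They corresponded to 12 Ensembl identifiers of the 32105 in the count tables, and 11 of these passed the filter on low counts, as did 21372 identifiers in all. The study sequenced 16 whole-animal libraries, 4 in each of 4 groups, taken at 5 days post-fertilization. Control larvae received the solvent DMSO at 0.1%, and the other larvae received PCB153 at 0.1, 1 or 10 µM, over the same window from 4 to 120 hours post-fertilization. The labels gave no strain, clutch, batch or number of larvae per library. The study describes the 4 libraries of a group as biological replicates, but nothing says whether they came from separate clutches, so the p-values measure the spread between these libraries.

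HIF is a transcription factor made of an oxygen-regulated alpha subunit and a constitutive beta subunit of the ARNT family. When oxygen is available, prolyl hydroxylases of the EGLN family modify the alpha subunit, the von Hippel-Lindau protein VHL recognises the modified form, and a ubiquitin ligase marks it for destruction. The asparaginyl hydroxylase encoded by hif1an, also called FIH, blocks the binding of alpha subunits to the coactivators p300 and CBP. This control acts on protein, and RNA counts do not show it. In hypoxia, HIF target genes include glycolytic enzymes, glucose and lactate carriers, erythropoietin, vascular growth factors and, in many vertebrates, some of the EGLN genes themselves.

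The genes hif1aa, hif1al and vhl, were matched by their zebrafish symbol. The single identifiers carrying HIF1A, EGLN2, EGLN3 and HIF1AN in human form were taken as hif1ab, egln2, egln3 and hif1an. EPAS1 stood on 2 identifiers, and the symbol tables do not tell which is epas1a and which epas1b, so each is given by its identifier. EGLN1 stood on 3 identifiers, among which egln1a was not told apart and egln1b may be included. One of them, ENSDARG00000105156, had 0 counts in all 16 libraries among 216108220 gene counts, and a count of 0 allows up to 0.0139 counts per 1e+06 gene counts (CPM), for counting error only. Reads shared between duplicated genes cannot be separated in these counts.

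Gene counts per library ranged from 8069225 to 15531744. Levels are given in CPM with library sizes scaled by the trimmed mean of M-values, and since no gene lengths were used, levels are compared between groups and not between genes. Changes are log2 fold changes ± standard error from 1 edgeR quasi-likelihood fit of all 16 libraries, with n = 4 per group, and adjusted p-values are Benjamini-Hochberg values over all 21372 genes, with a threshold of 0.05. The 3 comparisons with DMSO share the same 4 control libraries. The share of uniquely aligned reads outside annotated genes was 31.4 to 35.5% in DMSO, 36.2 to 38.6% at 0.1 µM, 35.1 to 40.4% at 1 µM and 31.7 to 33.3% at 10 µM. Its part in the changes was not tested beyond a fit with that share as a covariate. The range at 0.1 µM did not overlap that of DMSO, and the range at 10 µM overlapped neither 0.1 nor 1 µM. In those comparisons the covariate and the dose cannot be told apart, so a call lost with the covariate does not separate them. The share of all counted records set aside as not uniquely aligned was 26.9 to 33.5% in DMSO and 28.1 to 57.7% at 0.1 µM. It was 31.3 to 40.7% at 1 µM and 36.6 to 41.5% at 10 µM. In this share every 10 µM library lay above every DMSO library, and its part in the changes was not tested. PCB153 0.1 µM replicates 2 and 4 were the least alike pair of any group, and PCB153 1 µM replicate 1 was the shallowest library.

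All 5 alpha subunits and 1 of the prolyl hydroxylases, egln2, had higher RNA levels in larvae exposed to PCB153 at 1 and 10 µM. The increase of hif1al was present at the lowest dose and reached 2.26-fold at 10 µM, while the other alpha subunits changed by 1.15- to 1.42-fold at the 2 higher doses. The EGLN1 identifiers, egln3, vhl and hif1an did not pass the threshold against DMSO at any dose. Against DMSO, 2 of 11 members rose at 0.1 µM, where 2.3% of all tested genes rose. At 1 µM, 6 of 11 rose, where 7.13% of all genes rose, and at 10 µM the same 6 (the 5 alpha subunit genes and egln2) rose, where 9.9% of all genes rose. The all-gene shares were not matched to the members for expression level. At the same doses 1.14%, 5.27% and 8.45% of all genes fell, and no member fell by edgeR or by DESeq2. With 11 members, a count of 0 is near that background. At unadjusted p under 0.05, edgeR gave 0, 1 and 0 lower members at 0.1, 1 and 10 µM, and so did DESeq2. The median change of the 11 members was 0.08, 0.20 and 0.27 at the 3 doses, beside all-gene medians of 0.0014, -0.0064 and -0.0076.

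**Figure D1:**
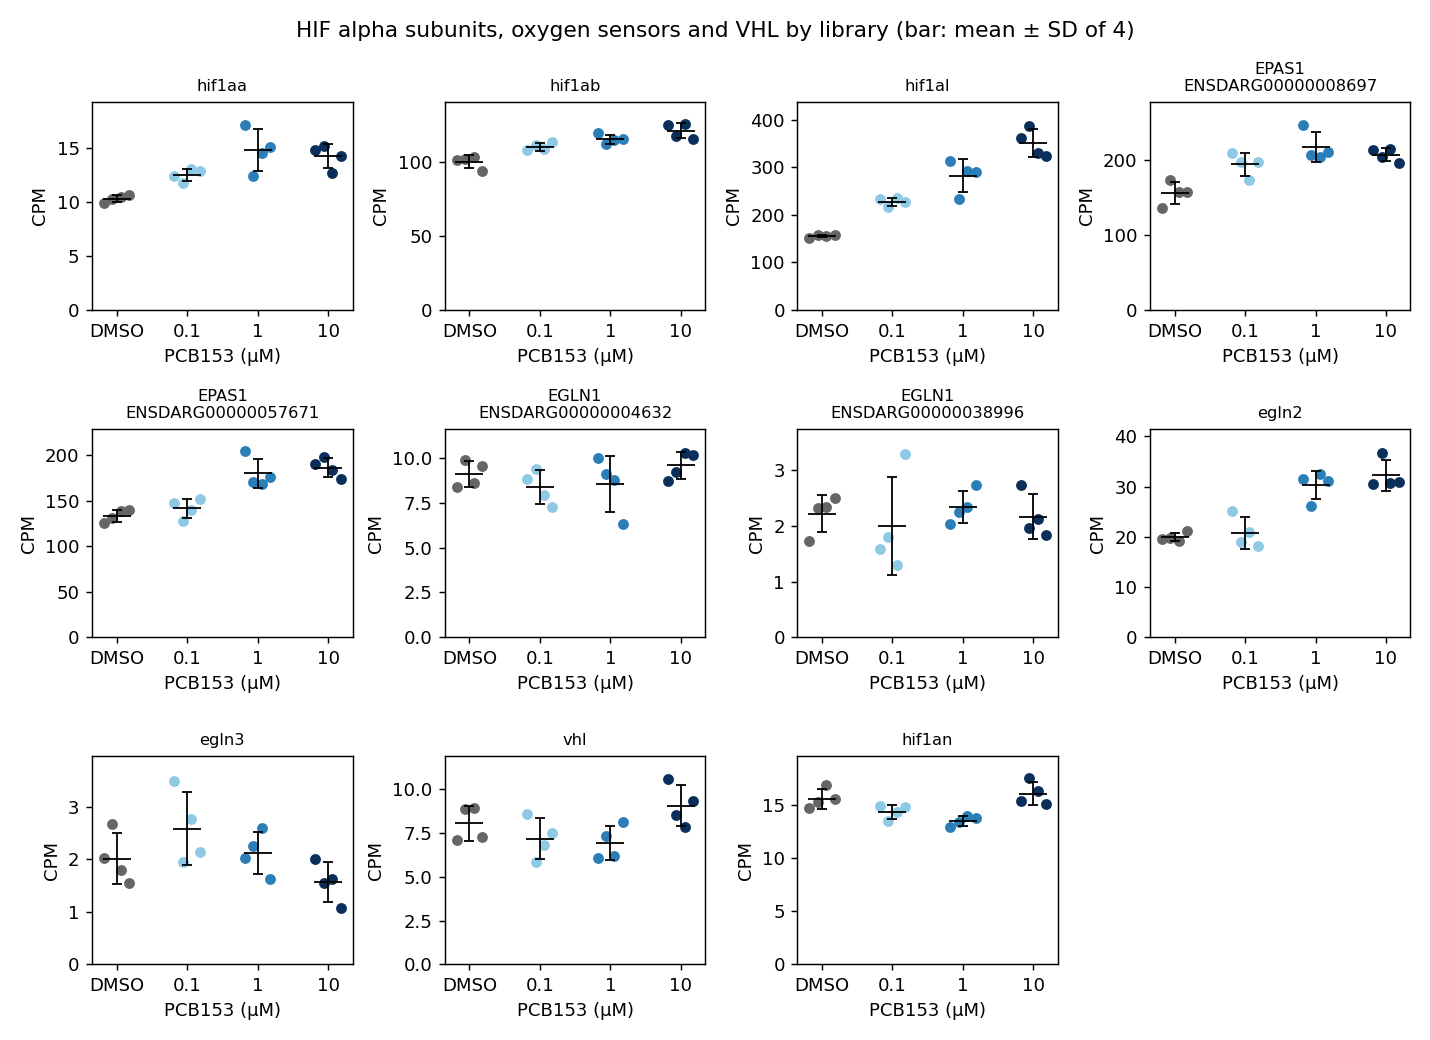
Expression of the 11 tested members in every library, in CPM (linear axes from 0) by PCB153 dose, with 4 libraries per group as points and the mean ± SD as bars. The 10 µM libraries of hif1al lie at 324 to 386 CPM, above all DMSO libraries at 152 to 158 CPM, and those of both EGLN1 identifiers, egln3, vhl and hif1an overlap DMSO.

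The alpha subunit gene hif1al (ENSDARG00000100826), which RefSeq lists with the synonym Hif-3alpha, changed most among the members. Its DMSO libraries measured 152, 158, 155 and 157 CPM, and the 0.1 µM libraries measured 232, 216, 235 and 228 CPM. The 1 µM libraries measured 314, 233, 292 and 290 CPM, and the 10 µM libraries measured 362, 386, 331 and 324 CPM. Every exposed library was above every DMSO library, and every 10 µM library was above every 1 µM library. The 0.1 and 1 µM groups overlapped through 1 µM replicate 2. Against DMSO, hif1al rose by 0.55 ± 0.07 at 0.1 µM (adjusted p = 6.11e-05), 0.86 ± 0.07 at 1 µM (adjusted p = 3.86e-08) and 1.17 ± 0.07 at 10 µM (adjusted p = 1.96e-10). The steps between doses were also called, at 0.31 ± 0.07 from 0.1 to 1 µM (adjusted p = 0.0413) and 0.31 ± 0.07 from 1 to 10 µM (adjusted p = 0.012). The first of these steps lost its call in 13 of 23 alternative settings, with adjusted p up to 0.323, and with the replicate block it stood at 0.0537. The second was not called when the outside-gene share entered as a covariate (0.21, adjusted p = 0.57) or without 10 µM replicate 2 (0.27, adjusted p = 0.0588). That share did not overlap between 1 and 10 µM, so the covariate and the dose cannot be told apart there.

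The EPAS1 genes encode the HIF-2 alpha subunits, which in mammals are known for controlling erythropoietin and for their expression in vessels. For EPAS1 ENSDARG00000008697 the DMSO libraries measured 136, 173, 157 and 158 CPM and the 0.1 µM libraries 209, 197, 173 and 197 CPM. The 1 µM libraries measured 247, 207, 205 and 210 CPM and the 10 µM libraries 213, 204, 214 and 196 CPM. The exposed groups lay above DMSO in every library, by a narrow margin at 0.1 µM, where 173.02 CPM in replicate 3 was next to 172.98 CPM in DMSO replicate 2. EPAS1 ENSDARG00000008697 rose by 0.32 ± 0.07 at 0.1 µM (adjusted p = 0.0155), 0.48 ± 0.07 at 1 µM (adjusted p = 0.000125) and 0.41 ± 0.07 at 10 µM (adjusted p = 0.000459). None of its 3 differences between doses passed the threshold. The call at 0.1 µM was lost with the covariate, where the change was still 0.31 (adjusted p = 0.186), without DMSO replicate 1 (0.26, adjusted p = 0.0679) and without 0.1 µM replicate 1 (0.28, adjusted p = 0.0536).

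The other EPAS1 gene was called at the 2 higher doses. EPAS1 ENSDARG00000057671 measured 125, 131, 138 and 140 CPM in DMSO and 147, 127, 140 and 151 CPM at 0.1 µM, and these groups overlapped. It measured 204, 171, 169 and 176 CPM at 1 µM and 190, 198, 183 and 173 CPM at 10 µM, all above every DMSO and 0.1 µM library. The change against DMSO was 0.08 ± 0.07 at 0.1 µM (adjusted p = 0.575), and the gene rose by 0.43 ± 0.07 at 1 µM (adjusted p = 0.000143) and 0.48 ± 0.07 at 10 µM (adjusted p = 2.74e-05). It also rose from 0.1 to 1 µM by 0.34 ± 0.07 (adjusted p = 0.0196), which 5 of 23 alternatives did not call (adjusted p 0.0663 to 0.145), and from 0.1 to 10 µM by 0.40 ± 0.07 (adjusted p = 0.000339). The step from 1 to 10 µM, 0.05 ± 0.07, was not called (adjusted p = 0.707).

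The 2 genes for HIF-1 alpha, the subunit best known for the induction of glycolytic genes, both rose at the 2 higher doses. In the 4 DMSO libraries hif1aa (ENSDARG00000006181) measured 9.84, 10.2, 10.4 and 10.6 CPM. It measured 12.3, 11.7, 13.0 and 12.8 CPM at 0.1 µM, 17.1, 12.4, 14.5 and 15.1 CPM at 1 µM, and 14.8, 15.1, 12.6 and 14.2 CPM at 10 µM. No exposed library fell within the DMSO range, and the 3 doses overlapped with each other. The gene rose by 0.51 ± 0.09 at 1 µM (adjusted p = 0.000782) and 0.46 ± 0.09 at 10 µM (adjusted p = 0.0013). The difference at 0.1 µM, 0.28 ± 0.09, did not pass the threshold (adjusted p = 0.11), although the groups did not overlap.

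The hif1ab gene (ENSDARG00000034293) measured 101, 102, 103 and 93.9 CPM in DMSO and 108, 111, 108 and 113 CPM at 0.1 µM. It measured 119, 112, 115 and 115 CPM at 1 µM and 125, 117, 125 and 115 CPM at 10 µM. The 3 exposed groups lay above DMSO in every library, and neighbouring doses overlapped. The 10 µM group lay above the 0.1 µM group without overlap (0.13 ± 0.05, adjusted p = 0.0551). The increases were the smallest called among the members, at 0.20 ± 0.05 at 1 µM (adjusted p = 0.00867) and 0.27 ± 0.05 at 10 µM (adjusted p = 0.000528). At 0.1 µM the difference was 0.14 ± 0.05 (adjusted p = 0.138). With the covariate, hif1ab at 1 µM stood just inside the threshold (adjusted p = 0.0499).

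**Figure D2:**
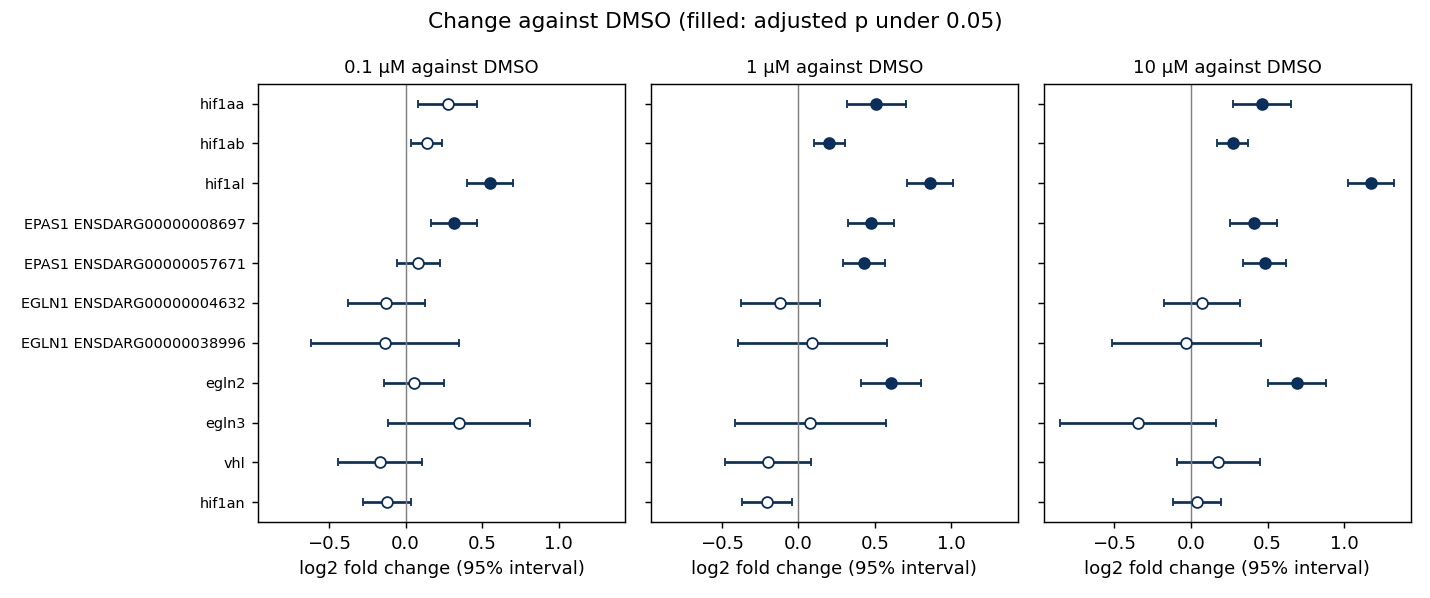
Log2 fold change of each tested member against DMSO in the edgeR fit, with 95% intervals, in 1 panel per PCB153 dose, with filled points where the adjusted p was under 0.05. At 0.1 µM 2 points are filled, and 6 at both 1 and 10 µM, all to the right of 0, and hif1al lies farthest right at each dose.

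At 0.1 µM, 4 members had all exposed libraries above all DMSO libraries, as did 5.03% of all tested genes. At 1 µM this held for 6 members (9.75% of all genes) and at 10 µM for 6 (13.2% of all genes). One member, hif1an, had all 1 µM libraries below all DMSO libraries, as did 9.47% of all genes. Between doses, 2 members had all 1 µM libraries above all 0.1 µM libraries (3.12% of all genes). From 1 to 10 µM this held for 2 members (6.91% of all genes) and from 0.1 to 10 µM for 5 (11.7% of all genes).

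Among the prolyl hydroxylases, which mark the alpha subunits for VHL, egln2 (ENSDARG00000062562) rose and the others did not pass the threshold against DMSO. The protein is the zebrafish counterpart of PHD1. Its RNA measured 19.6, 19.8, 19.1 and 21.1 CPM in DMSO and 25.1, 18.9, 21.0 and 18.1 CPM at 0.1 µM. It measured 31.6, 26.1, 32.5 and 31.1 CPM at 1 µM and 30.6, 36.8, 30.7 and 30.9 CPM at 10 µM. The 0.1 µM group spread around DMSO on both sides, and every library of the 2 higher doses was above both. The gene rose by 0.60 ± 0.09 at 1 µM (adjusted p = 0.000134) and 0.69 ± 0.09 at 10 µM (adjusted p = 1.74e-05), and the change at 0.1 µM was 0.06 ± 0.10 (adjusted p = 0.821). Between doses, egln2 rose by 0.55 ± 0.09 from 0.1 to 1 µM (adjusted p = 0.00969) and by 0.64 ± 0.09 from 0.1 to 10 µM (adjusted p = 0.000101), while 1 and 10 µM differed by 0.09 ± 0.09 (adjusted p = 0.632). The step from 0.1 to 1 µM was not called in a fit of those 2 groups alone (adjusted p = 0.0846) or without the 3 libraries that stood apart (0.37, adjusted p = 0.175), and the difference between 0.1 and 10 µM reached adjusted p = 0.0543 with the covariate.

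EGLN1 encodes the main oxygen sensor of many mammalian cells, PHD2. EGLN1 ENSDARG00000004632 lay between 8.40 and 9.91 CPM in DMSO, 7.24 and 9.38 CPM at 0.1 µM, 6.32 and 10.0 CPM at 1 µM, and 8.71 and 10.3 CPM at 10 µM. All 4 groups overlapped. Its change at 10 µM was 0.07 ± 0.12 (adjusted p = 0.732), with a 95% interval from -0.18 to 0.32. EGLN1 ENSDARG00000038996 had 16 to 51 counts per library, and its change at 10 µM was -0.03 ± 0.23 (adjusted p = 0.949), with an interval from -0.52 to 0.46.

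The egln3 gene (ENSDARG00000032553), whose mammalian counterpart PHD3 is itself induced by hypoxia, had 14 to 46 counts per library. It measured 2.03, 2.66, 1.80 and 1.54 CPM in DMSO and 3.48, 1.94, 2.76 and 2.13 CPM at 0.1 µM. It measured 2.03, 2.26, 2.58 and 1.63 CPM at 1 µM and 2.01, 1.54, 1.63 and 1.07 CPM at 10 µM. The 4 groups overlapped. Against DMSO its changes were 0.35 ± 0.22 (adjusted p = 0.458), 0.08 ± 0.24 (adjusted p = 0.879) and -0.34 ± 0.25 (adjusted p = 0.362) at 0.1, 1 and 10 µM. From 0.1 to 10 µM it fell by 0.70 ± 0.24 (adjusted p = 0.0402), the only lower call among the members in any comparison, where 10.6% of all genes fell. That call was lost in 8 of 23 alternatives, DESeq2 among them (adjusted p = 0.0547).

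The asparaginyl hydroxylase gene hif1an (ENSDARG00000031915) measured 14.7, 15.3, 16.9 and 15.6 CPM in DMSO and 14.9, 13.5, 14.4 and 14.8 CPM at 0.1 µM. It measured 12.9, 13.4, 14.0 and 13.8 CPM at 1 µM and 15.4, 17.6, 16.3 and 15.1 CPM at 10 µM. The 1 µM group lay below DMSO and below 10 µM without overlap, and the 10 µM group lay above 0.1 µM. None of these differences passed the threshold. They were -0.21 ± 0.08 for 1 µM against DMSO (adjusted p = 0.0896) and 0.25 ± 0.08 for 10 against 1 µM (adjusted p = 0.0654). For 10 against 0.1 µM the difference was 0.16 ± 0.08 (adjusted p = 0.144).

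The vhl gene (ENSDARG00000070617), the substrate receptor of the ligase, measured 7.09, 8.88, 8.93 and 7.30 CPM in DMSO and 8.62, 5.83, 6.81 and 7.50 CPM at 0.1 µM. It measured 6.08, 7.33, 6.19 and 8.15 CPM at 1 µM and 10.6, 8.55, 7.83 and 9.35 CPM at 10 µM. All groups overlapped DMSO. Its changes against DMSO were -0.17 ± 0.13 (adjusted p = 0.573), -0.20 ± 0.14 (adjusted p = 0.382) and 0.18 ± 0.13 (adjusted p = 0.375). The difference between 10 and 0.1 µM, 0.34 ± 0.13, missed the threshold (adjusted p = 0.0668) and passed it without 0.1 µM replicate 1 (adjusted p = 0.0285) or 10 µM replicate 3 (adjusted p = 0.0411).

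Between doses, fewer members were called than at 1 or 10 µM against DMSO. From 0.1 to 1 µM, hif1al, EPAS1 ENSDARG00000057671 and egln2 were higher, 3 of 11 where 0.538% of all genes rose, and none of the 3 calls held in all 23 alternatives. In a fit of these 2 groups alone, 0 members were called higher by edgeR, 4 at unadjusted p under 0.05, and over all genes 4 were called higher in place of 115. That all-gene count ranged from 20 to 277 when 1 library was left out. From 1 to 10 µM 1 of 11 rose, hif1al, where 3.11% of all genes rose. In these steps 0.435% and 3.05% of all genes fell and 0 members did by edgeR or DESeq2, also at unadjusted p under 0.05. From 0.1 to 10 µM 3 of 11 rose, where 10.8% of all genes rose, and hif1al by 0.62 ± 0.07 (adjusted p = 1.48e-05) and EPAS1 ENSDARG00000057671 kept their calls in all alternatives.

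The members did not change in equal proportion. The share of hif1al among the summed counts of the 5 alpha subunit genes was 28.0% ± 0.71 (SD, n = 4) in DMSO, 33.2% ± 1.27 at 0.1 µM, 34.8% ± 2.18 at 1 µM and 39.9% ± 1.57 at 10 µM. The share of hif1ab was 18.1% ± 1.03 in DMSO and 13.8% ± 0.73 at 10 µM, that of hif1aa 1.85% ± 0.05 and 1.62% ± 0.11, that of EPAS1 ENSDARG00000008697 28.0% ± 1.73 and 23.6% ± 1.06, and that of EPAS1 ENSDARG00000057671 24.1% ± 0.96 and 21.2% ± 0.21. All 4 of these genes rose at 10 µM, and their shares were lower in a common sum of which hif1al took more. These shares depend on gene length, so they are read across groups for 1 gene and not between genes.

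Ratios of 2 members within each library, which do not depend on library scaling, were compared with DMSO in 12 exact two-sided permutation tests. The 4 pairs were chosen after the members' values had been seen, and 4 libraries against 4 cannot give a p below 0.0286. None of the 12 passed adjustment, which with that floor is possible only if most of the 12 tests reach it. The log2 ratio of hif1al to hif1ab was 0.63 ± 0.07 (SD, n = 4) in DMSO, 1.05 ± 0.08 at 0.1 µM, 1.28 ± 0.15 at 1 µM and 1.53 ± 0.13 at 10 µM. It was above every DMSO library in all 12 exposed libraries (exact p = 0.0286 at each dose, adjusted p = 0.0686). The log2 ratio of egln2 to EGLN1 ENSDARG00000004632 was 1.13 ± 0.09 in DMSO, 1.84 ± 0.34 at 1 µM and 1.74 ± 0.20 at 10 µM (exact p = 0.0286 for both, adjusted p = 0.0686). At 0.1 µM it was 0.18 higher than in DMSO (exact p = 0.171, adjusted p = 0.205). The ratio of the EPAS1 pair was 0.22 ± 0.13 in DMSO and 0.46 ± 0.14 at 0.1 µM (exact p = 0.0857, adjusted p = 0.114), so the different calls of the 2 EPAS1 genes at 0.1 µM were not shown to differ. The ratio of hif1aa to hif1ab rose by 0.14, 0.31 and 0.19 at the 3 doses with exact p of 0.0857, 0.0571 and 0.0571 (adjusted p = 0.114, 0.0979 and 0.0979).

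**Figure D3:**
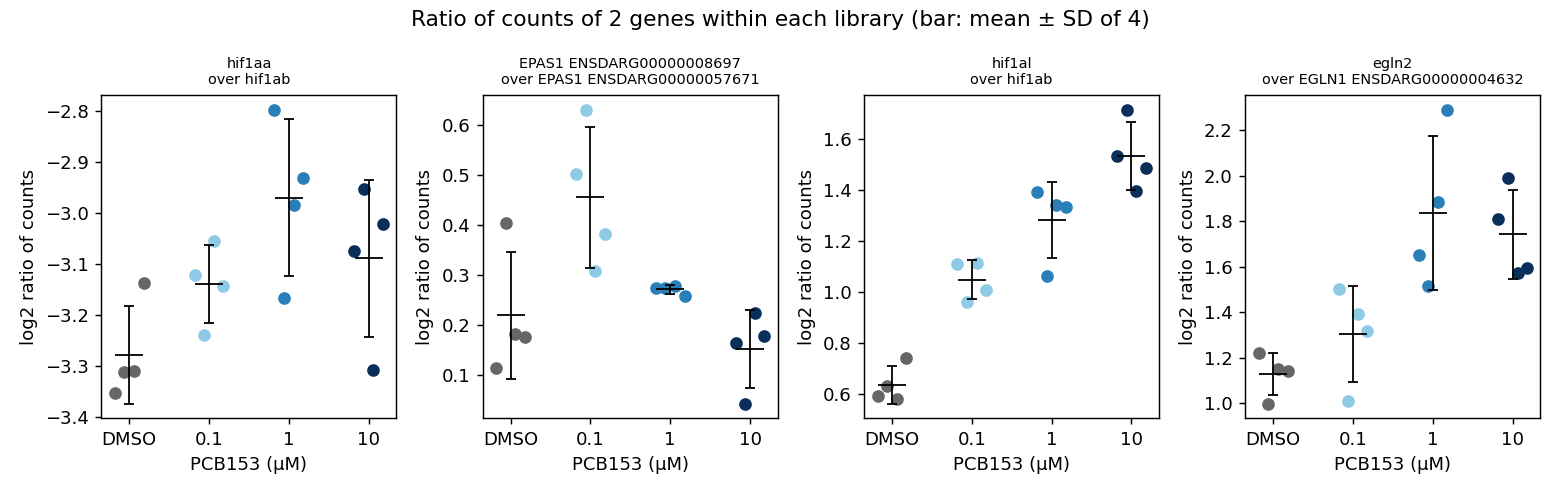
Log2 ratio of the counts of 2 members within each library, by PCB153 dose in µM, with 4 libraries per group as points and the mean ± SD as bars, on axes that do not start at 0. For hif1al over hif1ab the group means run from 0.63 in DMSO to 1.53 at 10 µM with no exposed library inside the DMSO range, and for the EPAS1 pair all 3 exposed groups overlap DMSO.

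Some members varied together between libraries of the same group. After the group means were removed, the deviations of hif1aa and hif1al had a Pearson r of 0.88 over the 16 libraries, those of hif1aa and EPAS1 ENSDARG00000057671 0.684, and those of hif1al and egln2 0.662. These were picked as the highest of 55 pairs, whose r ran from -0.461 to 0.88 with a median of 0.182, and hif1aa with hif1ab had 0.092. Libraries share depth and composition, and these values are a description. At 1 µM, hif1aa and hif1al were both highest in replicate 1, the shallowest library (17.1 and 314 CPM). Both were lowest there in replicate 2 (12.4 and 233 CPM). The part of these 2 libraries in the r of 0.88 was not tested. The patterns most like each called member were sought among tested genes with a symbol, by Pearson r of log2 CPM over the 16 libraries. The genes found follow in part the group differences that all of them share. For hif1al they were PCK1, the entry enzyme of gluconeogenesis (r = 0.986), KLF9, a Krüppel-like transcription factor (r = 0.982), and foxo3b, a forkhead factor (r = 0.978). For EPAS1 ENSDARG00000057671 they were LPIN1, a phosphatidate phosphatase (r = 0.967), cbx7a, a Polycomb protein (r = 0.964), and FAM13A (r = 0.955). For EPAS1 ENSDARG00000008697 they were tlr4ba (r = 0.933), PIK3R1, a regulatory subunit of PI3 kinase (r = 0.928), and IFRD1 (r = 0.92). For hif1aa they were NOB1, for hif1ab guca1c and for egln2 PDC, with the highest r at 0.957, 0.929 and 0.947.

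Partners of the alpha subunits and the other parts of the VHL ligase had few calls, in both directions. Of 15 tested identifiers 1, 1 and 2 rose at 0.1, 1 and 10 µM, or 6.67%, 6.67% and 13.3% beside 2.3%, 7.13% and 9.9% of all genes, and 1, 3 and 2 fell, where 1.14%, 5.27% and 8.45% of all genes fell. The higher counts at 1 and 10 µM and the lower count at 10 µM are near the background. The 3 lower calls at 1 µM are above the share of all genes, and ranged from 1 to 5 when 1 library was left out. The 2 lower calls at 10 µM became 0 or 1 in 13 of 23 alternatives. The list medians were -0.12, -0.01 and -0.01, beside all-gene medians within 0.01 of 0. SIAH1, a ubiquitin ligase that in mammals acts on prolyl hydroxylases, was lower at all 3 doses, by -0.29 ± 0.06 (adjusted p = 0.00626), -0.20 ± 0.06 (adjusted p = 0.0288) and -0.18 ± 0.06 (adjusted p = 0.0373). The SIAH1 call at 1 µM was lost in 5 of 23 alternatives (adjusted p up to 0.104) and that at 10 µM in 9 (up to 0.113), DESeq2 among the latter. CITED2, which competes with HIF alpha for p300 and CBP, fell by 0.25 ± 0.07 at 1 µM (adjusted p = 0.029), and cited4b of the same family fell by 0.32 ± 0.08 at 1 µM (adjusted p = 0.00955). These calls were lost in 6 alternatives for CITED2 (adjusted p up to 0.252) and in 1 for cited4b (0.266). The relative cited4a was at -0.26 ± 0.08 at 0.1 µM (adjusted p = 0.0754) and -0.24 ± 0.08 at 1 µM (adjusted p = 0.0537). Neither was called, but 2 and 5 of 23 alternatives called them lower. At 10 µM cited4a rose by 0.30 ± 0.08 (adjusted p = 0.0106), where cited4b was at 0.14 ± 0.08 (adjusted p = 0.208). ARNT2, a beta subunit, had 125 CPM in DMSO and 142 CPM at 10 µM, a rise of 0.19 ± 0.06 (adjusted p = 0.037) whose call was lost in 5 alternatives (up to 0.171). Of the EP300 pair, which encode p300, ENSDARG00000100666 rose by 0.24 ± 0.06 at 0.1 µM (adjusted p = 0.0382) and 0.26 ± 0.06 at 1 µM (adjusted p = 0.00935), and ENSDARG00000061108 fell by 0.16 ± 0.05 at 10 µM (adjusted p = 0.0419). Alternatives did not call the first of these rises in 9 of 23 settings (adjusted p up to 0.201), the second in 1 (0.0713) and the fall in 11 (up to 0.156).

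HIF target genes, a list of 75 identifiers of which 73 were tested, had few calls at the 2 lower doses and more at 10 µM. At 0.1 µM 5 of 73 rose (6.85%, all genes 2.3%) and 0 fell by edgeR or DESeq2, with 5 and 4 lower at unadjusted p under 0.05. At 1 µM 7 rose (9.59%, all genes 7.13%) and 3 fell, and at 10 µM 29 rose (39.7%, all genes 9.9%) and 4 fell. Of all genes 1.14%, 5.27% and 8.45% fell at the 3 doses. The list was chosen with earlier results of these data known, and the all-gene shares were not matched to it for expression level. The list medians were -0.01, 0.04 and 0.15. The share that rose at 1 µM was near that of all genes. SLC2A1, SLC16A3, PFKM, ALDOC, VEGFA, ADM and STC2 each stood on 2 identifiers. Only the identifier named below, picked by smallest p among called genes, is described with its values. The other SLC2A1 and SLC16A3 identifiers were not called at 0.1 or 1 µM. The other VEGFA identifier was not called lower at any dose. In further comparisons the other identifier may differ as well.

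Glycolysis genes accounted for 13 of the 29 at 10 µM, among 30 tested (43.3%, all genes 9.9%). At 0.1 and 1 µM 2 and 4 of the 30 rose (6.67% and 13.3%, all genes 2.3% and 7.13%). By edgeR 0 of the 30 fell at any dose, where 1.14%, 5.27% and 8.45% of all genes fell. PFKFB4, which sets the level of an activator of glycolysis, had 87.1 CPM in DMSO, 175 CPM at 0.1 µM, 272 CPM at 1 µM and 308 CPM at 10 µM, rises of 1.00 ± 0.11, 1.64 ± 0.12 and 1.82 ± 0.12 (adjusted p = 6.86e-05, 1.02e-07 and 2.24e-08). The PFKFB4 identifier was taken as pfkfb4b. The related gene pfkfb4a, listed on its own identifier, was not called at 0.1 or 1 µM. PFKFB3, of the same family, rose by 1.18 ± 0.21 at 1 µM (adjusted p = 0.00314) and 1.80 ± 0.21 at 10 µM (adjusted p = 0.000102). SLC2A1 ENSDARG00000007412, a glucose carrier, rose at all 3 doses, by 0.31 ± 0.07, 0.45 ± 0.07 and 0.30 ± 0.07 (adjusted p = 0.014, 0.000155 and 0.00437), with the call at 0.1 µM lost in 2 alternatives (up to 0.0576). The lactate carrier SLC16A3 ENSDARG00000045051 rose by 0.51 ± 0.10 at 1 µM (adjusted p = 0.00159) and by 0.38 ± 0.10 at 10 µM (adjusted p = 0.0104). The phosphofructokinase PFKM ENSDARG00000014179 and the aldolase ALDOC ENSDARG00000019702 rose at 10 µM by 0.61 ± 0.08 (adjusted p = 3.81e-05) and 0.32 ± 0.05 (adjusted p = 0.000247). The glycolytic enzymes LDHA and GAPDH, picked after their values were seen, had changes of 0.02 and 0.07 at 10 µM (adjusted p = 0.922 and 0.542).

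Of 15 tested genes of blood and vessels, 0, 0 and 3 rose and 0, 2 and 2 fell at the 3 doses. Of all genes 2.3%, 7.13% and 9.9% rose and 1.14%, 5.27% and 8.45% fell, and with 15 genes these counts are near that background. The angiogenic growth factor VEGFA ENSDARG00000034700 fell by 0.38 ± 0.08 at 10 µM (adjusted p = 0.00112), with 21.6 CPM in DMSO and 16.6 CPM at 10 µM. The transferrin gene tfa, also a liver marker, fell by 0.47 ± 0.13 at 1 µM (adjusted p = 0.0313) and 0.62 ± 0.13 at 10 µM (adjusted p = 0.00519), and 6 alternatives did not call the first (up to 0.0873). The endothelin gene edn1 was at -0.52 ± 0.17 at 1 µM (adjusted p = 0.0495), a call lost in 17 of 23 alternatives, DESeq2 and the replicate block among them (adjusted p up to 0.156). ANGPTL4, a lipoprotein lipase inhibitor, and ADM ENSDARG00000069027, which encodes the vasodilator adrenomedullin, rose at 10 µM by 0.43 ± 0.08 (adjusted p = 0.00114) and 0.49 ± 0.15 (adjusted p = 0.0277). The ADM call was lost in 4 alternatives (up to 0.135).

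Of 28 hypoxia markers, 3, 3 and 13 rose at 0.1, 1 and 10 µM (10.7%, 10.7% and 46.4%, all genes 2.3%, 7.13% and 9.9%), and 0, 1 and 2 fell, where 1.14%, 5.27% and 8.45% of all genes fell. The 3 that rose at every dose were higd1a, a mitochondrial protein of the hypoxia-induced domain family, the lysyl oxidase relative loxl2a and the transcriptional repressor BHLHE41. Against DMSO higd1a rose by 0.92 ± 0.12, 1.05 ± 0.13 and 0.86 ± 0.13 (adjusted p = 0.000358, 3.27e-05 and 0.000176). The loxl2a gene rose by 0.57 ± 0.09, 0.83 ± 0.09 and 0.60 ± 0.09 (adjusted p = 0.00071, 2.42e-06 and 0.000104), and BHLHE41 by 0.37 ± 0.08, 0.65 ± 0.08 and 0.83 ± 0.08 (adjusted p = 0.0107, 1.04e-05 and 2.34e-07), with its call at 0.1 µM lost in 1 alternative (0.0735). STC2 ENSDARG00000102206, a stanniocalcin, was called at 10 µM alone, at 0.91 ± 0.12 (adjusted p = 1.96e-05). The lysyl hydroxylase PLOD1 fell by 0.23 ± 0.07 at 1 µM (adjusted p = 0.0335) and by 0.22 ± 0.07 at 10 µM (adjusted p = 0.0294), calls that were lost in 7 (up to 0.179) and 4 (up to 0.094) alternatives.

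**Figure D4:**
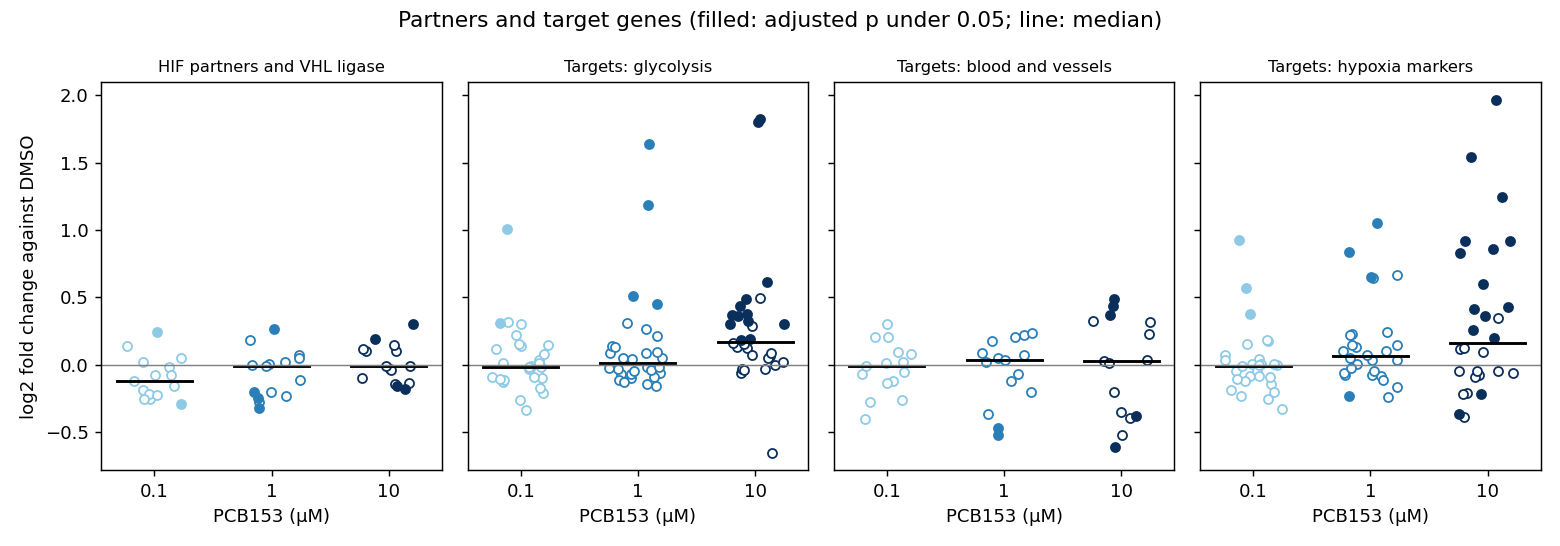
Log2 fold change against DMSO of each tested gene of 4 lists, by PCB153 dose in µM, with filled points where the adjusted p was under 0.05 and a line at the list's median. Filled points above 0 are most frequent at 10 µM in the glycolysis and hypoxia marker lists, with 13 of 30 and 13 of 28 genes, and the partner list has filled points on both sides of 0.

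In whole larvae, a change of RNA per cell and a change in the number of cells of a type cannot be told apart. Markers of 10 tissues were all detected in DMSO. Among all genes 2.3%, 7.13% and 9.9% rose at 0.1, 1 and 10 µM, and 1.14%, 5.27% and 8.45% fell. With at most 5 tested markers per list, 1 call at 1 or 10 µM cannot be set apart from that background. The 3 epidermis markers were lower at 1 and 10 µM, with summed levels of 7700 to 9010 CPM in DMSO, 5390 to 6560 CPM at 1 µM and 5400 to 5940 CPM at 10 µM, the doses at which 6 members rose. Of the chondrocyte markers 3 of 4 were lower at those doses, at 4070 to 4180 CPM in DMSO, 2940 to 3680 CPM at 1 µM and 3050 to 3760 CPM at 10 µM. Of the liver markers 4 of 5 were lower, at 4030 to 4660, 3240 to 3860 and 2980 to 3700 CPM. The heart list had 2 of 3 higher at 10 µM, at 36.9 to 46.7 CPM against 33.1 to 36.5 CPM. Endothelial markers summed to 140 to 155 CPM in DMSO and 145 to 150 CPM at 10 µM, with 1 of 3 called lower at each dose. Of the 6 red blood cell identifiers, 1 was at 0 in the whole group at 1 µM and 1 at 10 µM. Of the 4 tested, 1 was higher at 10 µM, and the list summed to 175 to 268 CPM in DMSO and 266 to 307 CPM at 10 µM. Eye markers summed to 1070 to 1130 CPM in DMSO, 855 to 1010 CPM at 1 µM and 1150 to 1240 CPM at 10 µM. Brain markers summed to 877 to 906 CPM in DMSO and 904 to 949 CPM at 10 µM. In each of these 2 lists 1 of 5 was called higher at 10 µM. At that dose 1 of 4 skeletal muscle markers was called lower and 0 of 3 exocrine pancreas markers were called. The part of these shifts in the members' changes was not tested. All 6 members called at 1 and at 10 µM kept their calls in all 23 alternatives, including without the 3 libraries that stood apart.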

How the data were processed

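Whole-animal total RNA was prepared with the Illumina TruSeq Stranded total RNA kit with Ribo-Zero Gold, per the labels' protocols. The deposited values are the authors' raw counts per Ensembl gene. Trimmomatic, HTSeq, edgeR and build GRCz10 are named in the submitters' processing notes, and the aligner and annotation were not given in the sources used here. The members and gene lists were chosen with earlier results of these data known. Of 32105 identifiers, 26269 had a symbol in the tables used, and 13 listed names had no match. Summary lines of reads outside genes were kept out of library sizes (31.4 to 40.4% of uniquely aligned reads). Counts were filtered with filterByExpr, scaled by TMM and tested with edgeR 4.0.16 in R 4.3.3 (robust quasi-likelihood F-test, group as the only term, all 16 libraries, common biological coefficient of variation 0.0847), after a check on simulated counts. The 3 doses were compared with DMSO and with each other. Standard errors were taken as the size of the log2 change over the root of F. Ratios used a pseudocount of 0.5. Genes of the other lists were named where called against DMSO, up to 4 per list and comparison by smallest p. For each called member the 3 nearest patterns were taken among tested genes with a symbol. Alternatives were DESeq2 1.42.0, its size factors in edgeR, no filter, a fit of 2 groups, the replicate block, the outside-gene read share as a covariate, each library left out, and, chosen after seeing the data, 3 libraries left out. Sequences and coordinates were not used here.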

Additional observations from a re-analysis of the deposited data

Results flagged for a closer look

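Of 44 sets of 4 libraries (11 members in 4 groups), 2 held a library far from the others, and chance flags about 1 in 20 sets. EPAS1 ENSDARG00000008697 measured 247 CPM in PCB153 1 µM replicate 1, the shallowest library, against 205 to 210 CPM in the other 3 libraries of that dose, a gap of 0.864 of the range. Without that library and 2 others its change at 1 µM was still called. The egln2 gene measured 36.8 CPM in PCB153 10 µM replicate 2 against 30.6 to 30.9 CPM in the other 3 libraries, a gap of 0.956 of the range. The cause of both was not tested.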

How the results depend on the processing

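Of 1518 member values under alternatives, 34 lost and 5 gained a call and none that was called in either fit changed direction, while 27 values that were called in neither fit changed sign. For the named genes of the other lists, 88 of 1587 lost and 13 gained a call, and 36 uncalled values changed sign. Libraries with the same replicate number shared little of their deviations (24 correlations, -0.178 to 0.229). The 1 correlation above 0.1 was that of replicate 1 at 0.1 and 1 µM. Differently numbered pairs were not compared, so this cannot tell whether same-numbered libraries shared a clutch or batch. With the replicate block the counts of members called higher were those of the main comparison, except that hif1al from 0.1 to 1 µM lost its call (0.31, adjusted p = 0.0537). With the outside-gene read share as a covariate, 1 member was higher at 0.1 µM against DMSO, 1 HIF target gene was lower at 1 µM against DMSO, 0 members were higher from 1 to 10 µM (edgeR, 1 at unadjusted p under 0.05) and 0 were lower from 0.1 to 10 µM (1 unadjusted). From 0.1 to 10 µM 0 members were also lower by DESeq2 and in the fit of the 2 groups alone (1 unadjusted in each). From 0.1 to 1 µM 0 members were higher by edgeR in the fit of the 2 groups alone and without the 3 libraries that stood apart (4 unadjusted in each). Leaving out 1 library at a time gave 1 to 2 members higher at 0.1 µM, 6 at 1 µM and 6 at 10 µM against DMSO, 1 to 3 from 0.1 to 1 µM, 0 to 1 from 1 to 10 µM and 3 to 4 from 0.1 to 10 µM, with 0 to 1 lower in the last. HIF target genes ranged from 4 to 6, 7 to 9 and 23 to 30 higher, and 0, 0 to 3 and 3 to 6 lower. HIF partners ranged from 0 to 1, 1 and 1 to 2 higher, and 1 to 3, 1 to 5 and 0 to 2 lower. The lower calls of HIF targets at 1 µM fell to 0 without DMSO replicate 2, 3 or 4. They also became fewer without 1 µM replicate 3 or 4. The cause was not tested.

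Over all genes the covariate gave 162 higher and 45 lower at 0.1 µM in place of 491 and 243, 755 and 321 at 1 µM in place of 1523 and 1127, 15 and 38 from 1 to 10 µM in place of 664 and 651, and 142 and 133 from 0.1 to 10 µM in place of 2304 and 2263. Except at 1 µM against DMSO, the groups of these comparisons did not overlap in the covariate, so it and the dose cannot be told apart. The fit of 2 groups gave 158 lower at 0.1 µM, and 4 higher and 3 lower from 0.1 to 1 µM in place of 115 and 93, where DESeq2 gave 298 and 288, and the 3 libraries left out gave 7 and 10. Without 1 library, all-gene counts ran from 302 to 717 higher and 109 to 400 lower at 0.1 µM, 1120 to 1687 and 689 to 1361 at 1 µM, 1549 to 2269 and 1031 to 2125 at 10 µM, 20 to 277 and 9 to 353 from 0.1 to 1 µM, 238 to 806 and 284 to 831 from 1 to 10 µM, and 1596 to 2456 and 1341 to 2658 from 0.1 to 10 µM. The genes egln3 and EGLN1 ENSDARG00000038996 had 51 or fewer counts per library and the largest standard errors among the members.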
